A study of Mus musculus with 8 samples.

Results

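The 8 genes of adenosine and purinergic signaling followed here in donor CD4+ T cells from allogeneic recipients were *Entpd1*, *Nt5e*, *Ada*, *Adk*, *Adora2a*, *P2rx7*, *P2rx4* and *P2ry12*. They were chosen by role (ectoenzymes, adenosine enzymes and purinergic receptors), with earlier ST2WT against ST2fl/fl results of these same libraries known, so their differences between genotypes are given below as a description and without a p-value. All 8 were among the 12417 entries of the expression table, and all 8 had a mean of at least 1 TPM, the level asked of a gene before it was compared, which 10238 entries met. TPM is a unit of transcript abundance. It divides the reads of a gene by its length and then scales the results to a common total per library. Levels can therefore be compared between genes.

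Each of 4 BALB/c recipients, lethally irradiated before transplant, received both kinds of donor T cell, and splenic CD4+ T cells of each kind were sorted on day 5, giving 8 libraries. The ST2WT cells came from CD45.1+ B6 donors with intact *St2*. The ST2fl/fl cells came from CD45.2+ B6 donors of the line *CD4-Cre* x *R26-LSL-YFP* x *St2fl/fl*, in which Cre driven by the *Cd4* promoter removes floxed *St2* sequence and switches on a YFP reporter in T cells. The congenic marker, the Cre and the reporter thus differ between the groups along with *St2*, and their parts cannot be told apart. ST2 is the receptor for IL-33, and the comparison asks how its loss on donor T cells alters their transcripts in an alloresponse.

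Cells that are stressed, dividing or dying release ATP, which acts on P2X channels and P2Y receptors as a danger signal. CD39, the product of *Entpd1*, removes phosphates from ATP and ADP to leave AMP, and CD73, the product of *Nt5e*, turns AMP into adenosine. Adenosine then engages receptors such as the product of *Adora2a*, which raises cyclic AMP and restrains T cell receptor signaling, until it is deaminated by ADA or phosphorylated by ADK. Regulatory T cells of the mouse carry CD39 and CD73 together, and naive and anergic CD4+ T cells carry CD73.

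The members with the clearest separation between genotypes were both ectoenzyme genes and *P2ry12*. *Nt5e* and *Entpd1* were lower in the ST2WT cells of every recipient, and *P2ry12* was higher in every one. *Ada* and *Adk* were also higher in the ST2WT cells of every recipient, but their groups overlapped. The stretches of 250 bases that precede the first of the *Entpd1* starts and the start of *P2ry12* are shown because these genes differed in opposite directions. They are the RefSeq sequences on GRCm38.p6, written 5′ to 3′ on the strand of the gene, at chr19:40612116-40612365 (plus strand) and chr3:59262986-59263235 (minus strand). Capitals mark the core of the cyclic AMP response element, TGACG or its reverse complement CGTCA.

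Entpd1: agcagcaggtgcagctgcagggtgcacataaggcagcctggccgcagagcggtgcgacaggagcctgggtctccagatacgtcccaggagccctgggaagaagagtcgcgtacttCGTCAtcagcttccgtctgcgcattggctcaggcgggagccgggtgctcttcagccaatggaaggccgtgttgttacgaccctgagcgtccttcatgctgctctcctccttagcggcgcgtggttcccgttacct
P2ry12: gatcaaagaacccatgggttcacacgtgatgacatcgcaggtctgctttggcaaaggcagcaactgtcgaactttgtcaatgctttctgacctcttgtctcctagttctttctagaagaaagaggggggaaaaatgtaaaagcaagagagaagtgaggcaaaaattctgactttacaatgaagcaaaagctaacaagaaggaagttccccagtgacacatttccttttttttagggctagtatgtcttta

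G and C made up 62.4% of the *Entpd1* stretch shown, 47.2% of the stretch before the other *Entpd1* start in the RefSeq table, chr19:40659520-40659769, and 41.6% of that of *P2ry12*, where the median of 32851 such stretches was 52.4%. The core, searched on both strands, occurred in 17.8% of all stretches. Of the 7 members with an entry in the RefSeq table, it occurred in *Entpd1*, *Adk* and *P2rx4*. *Nt5e*, lower in ST2WT cells like *Entpd1*, did not hold the core, and *Adk*, which leaned higher in ST2WT cells, did. The GC-rich Sp1 box GGGCGG, searched on both strands, occurred in 32.7% of all stretches and in 4 of the 7 members, *Nt5e*, *Ada*, *Adk* and *P2rx7*. *Adora2a* was not matched. *Entpd1*, *Adk* and *P2rx7* each have a further start in the RefSeq table and were counted if any of their stretches matched. Counts by gene therefore cannot be set against the shares of single stretches. A match describes the letters and shows no binding.

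*Nt5e* (chr9:88327197-88372092, plus strand) encodes CD73, the ectoenzyme that makes adenosine from AMP. In the ST2WT libraries of recipients 1, 2, 3 and 4 it stood at 7.96, 6.68, 6.77 and 6.20 TPM. In the ST2fl/fl libraries of the same recipients it stood at 11.6, 13.6, 11.5 and 12.6 TPM. The highest ST2WT library lay below the lowest ST2fl/fl library, and the ST2WT level was 0.490 to 0.689 of the ST2fl/fl level within a recipient. The means were 6.90 ± 0.747 and 12.3 ± 1.01 TPM (SD, n = 4 each), a difference of -0.76 on the log2(TPM + 1) scale (SE 0.11, ST2WT minus ST2fl/fl). The gene varied little among libraries of 1 genotype, with only 17.3% of the genes compared having a smaller spread within genotypes. In RNA from bulk samples, fewer cells that express a gene and less RNA per cell cannot be told apart, and this holds for every value here.

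*Entpd1* (chr19:40612366-40741602, plus strand) encodes CD39, which acts on ATP and ADP before CD73 acts on AMP. Its levels in the ST2WT libraries were 9.15, 10.04, 9.60 and 11.9 TPM in recipients 1, 2, 3 and 4. The ST2fl/fl libraries held 16.1, 12.5, 15.1 and 16.2 TPM in the same order. Again no ST2WT library reached the lowest ST2fl/fl library, although the gap at 11.9 against 12.5 TPM was narrow. The means of 10.2 ± 1.22 and 15.0 ± 1.72 TPM differed by -0.51 on the log2 scale (SE 0.12), and the ratio within a recipient ran from 0.568 to 0.804. *Entpd1* exceeded *Nt5e* in 7 of the 8 libraries. The *Entpd1* to *Nt5e* ratio was 1.15 to 1.92 in ST2WT libraries and 0.916 to 1.39 in ST2fl/fl libraries, so the ranges overlapped.

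*P2ry12* (chr3:59216272-59262871, minus strand) encodes the P2Y12 receptor for ADP, best known from platelets and microglia. In ST2WT cells it measured 5.39, 3.73, 3.78 and 4.37 TPM in recipients 1, 2, 3 and 4. In ST2fl/fl cells it measured 0.955, 0.8287, 1.42 and 2.46 TPM. Every ST2WT library was above every ST2fl/fl library, and within a recipient the ST2WT level was 5.64, 4.51, 2.65 and 1.78 times the ST2fl/fl level. The ratio thus differed more between recipients than for the ectoenzymes. The means were 4.32 ± 0.771 and 1.42 ± 0.742 TPM, a ratio of 3.05 and a log2 difference of 1.17 (SE 0.20).

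*P2ry12* lies within *Med12l*, a Mediator subunit gene on the opposite strand. The library kit does not mark strand, so reads where their exons overlap could not be told apart. *Med12l* itself stood at 0.278 to 1.06 TPM in the 8 libraries, and its genotype ranges overlapped. Of 5 genes for platelet and megakaryocyte proteins (*Pf4*, *Ppbp*, *Gp9*, *Itga2b* and *Gp1bb*), 0 were listed in the table, which holds only entries above 0 in all 8 libraries. Of 8 myeloid genes, *Cd68* and *Cx3cr1* were listed, with a summed level of 11.8 to 12.3 TPM in ST2WT and 12.01 to 18.3 TPM in ST2fl/fl libraries. *Cx3cr1*, which T cells can also express, was lower in ST2WT cells (log2 difference -1.01, SE 0.15, adjusted p = 0.0109 from limma). *Cd68* overlapped between genotypes (-0.14, SE 0.13, adjusted p = 0.631). A gene at 0 in any library would not be listed, and the part of platelets or myeloid cells in the level of *P2ry12* was not tested.

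**Figure D1:**
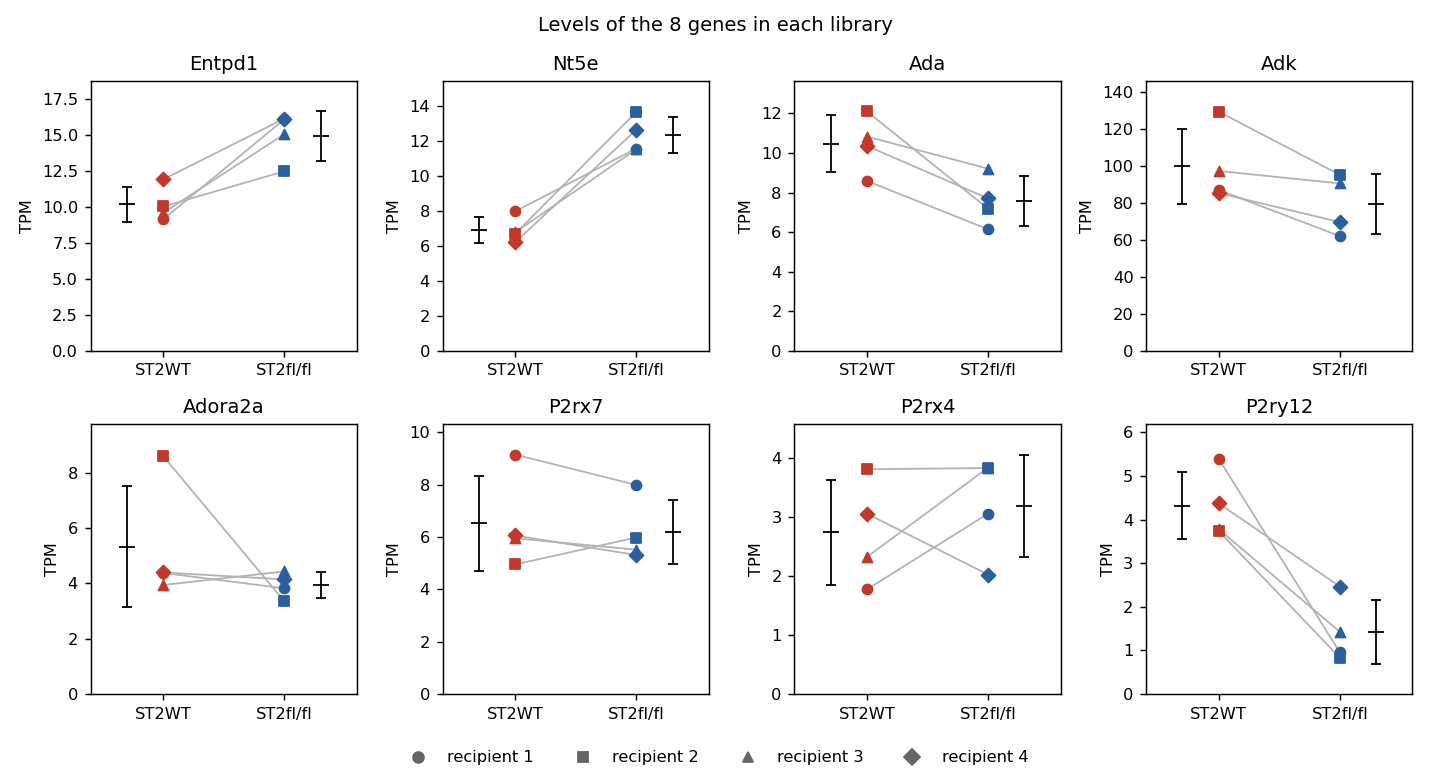
Level of each of the 8 genes in TPM (vertical axes, from 0) in the ST2WT (red) and ST2fl/fl (blue) library of each recipient, with grey lines joining the libraries of 1 recipient and bars giving the mean ± SD of 4 libraries. *Entpd1* and *Nt5e* are higher at the ST2fl/fl end of every line, *P2ry12*, *Ada* and *Adk* at the ST2WT end, and the ST2WT library of recipient 2 holds 8.59 TPM of *Adora2a*, above all other libraries.

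The enzymes that remove adenosine leaned the other way from the ectoenzymes that make it, with groups that overlapped. *Ada* (chr2:163726584-163750239, minus strand) encodes adenosine deaminase, which converts adenosine to inosine and whose loss causes severe combined immunodeficiency. It stood at 8.59, 12.1, 10.8 and 10.4 TPM in ST2WT cells of recipients 1, 2, 3 and 4. The ST2fl/fl cells held 6.14, 7.19, 9.21 and 7.70 TPM. Only the ST2fl/fl library of recipient 3 exceeded any ST2WT library, namely that of recipient 1. Within each of the 4 recipients the ST2WT library was the higher, by a ratio of 1.18 to 1.68. The means of 10.5 ± 1.45 and 7.56 ± 1.28 TPM differed by 0.42 (SE 0.14) on the log2 scale.

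*Adk* (chr14:21052574-21448569, plus strand) encodes adenosine kinase, which returns adenosine to AMP inside the cell. Its ST2WT levels were 86.9, 129, 97.1 and 85.1 TPM in recipients 1, 2, 3 and 4. Its ST2fl/fl levels were 61.9, 95.1, 90.4 and 69.5 TPM. Recipients 2 and 3 gave the highest values in both genotypes, and ST2WT was higher in 4 of 4 recipients with ratios of 1.07 to 1.40. The means were 99.6 ± 20.4 and 79.2 ± 16.02 TPM, with a log2 difference of 0.33 (SE 0.17, and 0.09 with the recipient as a block). Without the ST2WT library of recipient 2 the difference was 0.20, and without the ST2fl/fl library of recipient 1 it was 0.22.

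Of the enzyme ratios taken within a library, only that of *Ada* to *Nt5e* separated the genotypes. *Nt5e* alone also did so, and the ratio uses the same values, so it adds no separate evidence. The ratio of *Ada* to *Nt5e* was 1.08 to 1.81 in the 4 ST2WT libraries and 0.527 to 0.801 in the 4 ST2fl/fl libraries. *Ada* was thus the more abundant of these transcripts in 4 of 4 ST2WT libraries, and *Nt5e* in 4 of 4 ST2fl/fl libraries. The ratio of *Adk* to *Ada*, at 8.22 to 10.7 and 9.03 to 13.2, overlapped between genotypes.

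*Adora2a* (chr10:75316877-75334784, plus strand) encodes the adenosine receptor best known for restraining T cells. It stood at 4.38, 8.59, 3.94 and 4.39 TPM in ST2WT cells of recipients 1, 2, 3 and 4. In ST2fl/fl cells it stood at 3.82, 3.35, 4.43 and 4.14 TPM. Apart from 8.59 TPM in 1 library, all values lay between 3.35 and 4.43 TPM. The means of 5.33 ± 2.19 and 3.93 ± 0.464 TPM gave a log2 difference of 0.31 (SE 0.20), which became 0.09 without the ST2WT library of recipient 2.

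*P2rx7* (chr5:122643911-122691432, plus strand) and *P2rx4* (chr5:122707544-122729738, plus strand) are neighbours that encode ATP-gated cation channels. P2X7 opens at high ATP and, on mouse T cells, also after ADP-ribosylation by the product of *Art2b*, which can lead to cell death. *P2rx7* measured 9.15, 4.95, 5.95 and 6.06 TPM in ST2WT cells and 7.99, 5.98, 5.52 and 5.31 TPM in ST2fl/fl cells of recipients 1, 2, 3 and 4. Recipient 1 was the highest in both genotypes, and the means of 6.53 ± 1.82 and 6.20 ± 1.23 TPM differed by 0.05 (SE 0.18). This sign turned when the ST2WT library of recipient 1 was left out (-0.10). *P2rx4* measured 1.77, 3.81, 2.32 and 3.06 TPM in ST2WT cells and 3.05, 3.83, 3.84 and 2.02 TPM in ST2fl/fl cells. Its groups overlapped, with means of 2.74 ± 0.885 and 3.19 ± 0.857 TPM and a log2 difference of -0.17 (SE 0.21). That difference ran from -0.03 without the ST2WT library of recipient 1 to -0.32 without the ST2fl/fl library of recipient 4.

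By mean level over the 8 libraries the order was *Adk* (89.4 TPM), *Entpd1* (12.6), *Nt5e* (9.61), *Ada* (9.01), *P2rx7* (6.36), *Adora2a* (4.63), *P2rx4* (2.96) and *P2ry12* (2.87). *Adk* was the only member whose range over the libraries was apart from that of the next gene. The other neighbours in this order overlapped, and 2 of them traded places between genotypes. *Nt5e* and *Ada* did so as described above. *P2rx4* exceeded *P2ry12* in 1 of 4 ST2WT libraries and in 3 of 4 ST2fl/fl libraries.

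The threshold asked for a fold over 1.5 and an adjusted p under 0.05 from limma on log2(TPM + 1), adjusted by Benjamini-Hochberg over all 10238 genes. Of the 8 members, *Nt5e* was past it as lower and *P2ry12* as higher in ST2WT cells. Over all genes compared, 53 (0.518%) were past it, 28 (0.273%) lower and 25 (0.244%) higher. All ST2WT libraries lay below all ST2fl/fl libraries for *Entpd1* and *Nt5e*, as for 558 genes (5.45%) in all, and above them for *P2ry12*, as for 469 genes (4.58%). The members were chosen with this contrast known, so nothing is read from these shares. The differences of 5 members were above 0 and of 3 below 0, with a median of 0.18 against -0.01 over all genes. *Nt5e* was past the threshold in 3 and *P2ry12* in 2 of the 8 fits that left out a library, with differences of -0.82 to -0.71 for *Nt5e* and 1.05 to 1.36 for *P2ry12*.

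**Figure D2:**
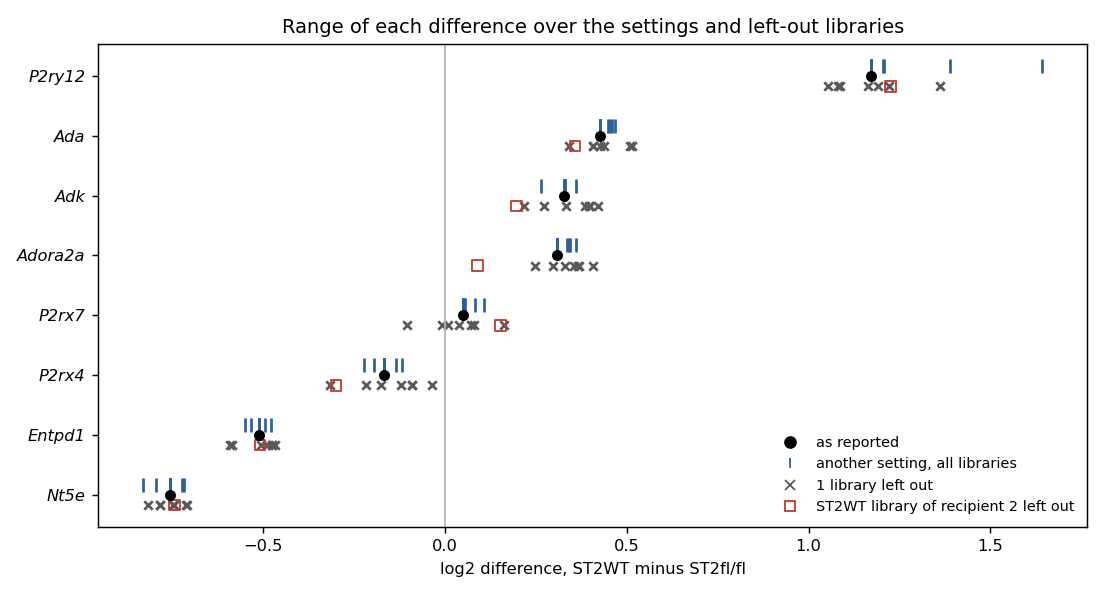
Log2 difference between ST2WT and ST2fl/fl libraries (horizontal axis) for each of the 8 genes as reported (black points), under up to 9 other settings with all libraries (blue ticks) and with 1 library left out (crosses, with a red square for the ST2WT library of recipient 2). *P2ry12*, *Entpd1* and *Nt5e* stay on their side of 0 throughout, *P2rx7* crosses it, and *Adora2a* moves to 0.09 without the ST2WT library of recipient 2.

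The members covaried in different ways across and within genotypes, described here over 8 libraries that share recipients in pairs. Over all libraries on the log2 scale, *Nt5e* had a Pearson r of 0.75 with *Entpd1*, -0.85 with *P2ry12* and -0.82 with *Ada*. After each genotype's mean was taken away, r was -0.79 between *Nt5e* and *Entpd1* and 0.18 between *Nt5e* and *P2ry12*. The ectoenzyme genes thus shared their direction between genotypes but not their variation among libraries of 1 genotype. *Ada* and *Adk* had an r of 0.80 over all libraries and of 0.70 around the genotype means.

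Of the 10237 other genes, those whose levels were most alike to *Nt5e* over the 8 libraries were *Trim12a* (r = 0.98), *BC094916* (r = 0.971) and *Lims1* (r = 0.971). *Trim12a*, a TRIM family gene, averaged 20.3 ± 0.486 TPM in ST2WT and 25.9 ± 1.14 TPM in ST2fl/fl cells. *BC094916* averaged 20.8 ± 1.64 and 34.1 ± 2.63 TPM. *Lims1*, which encodes the focal adhesion adaptor PINCH1, averaged 42.4 ± 2.63 and 52.6 ± 1.44 TPM. The most opposite were *Gldc*, a glycine cleavage enzyme gene (r = -0.985), *Plekhf1* (r = -0.976) and *Cenpk*, a kinetochore gene (r = -0.971). *Gldc* averaged 4.05 ± 0.931 TPM in ST2WT and 1.13 ± 0.460 TPM in ST2fl/fl cells, and *Cenpk* averaged 90.7 ± 5.32 and 63.7 ± 4.33 TPM. Each of these r values was picked as an extreme among all genes and is dominated by the gap between genotypes.

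The rest of the pathway was followed in 6 lists of 109 genes, of which 77 were in the table and 66 were compared. With limma, 0 of the 66 were past the threshold. At an unadjusted p under 0.05 there were 10 higher and 6 lower in ST2WT cells, 24.2% against 13.9% of all genes compared. The lists were also chosen with earlier results of these libraries known, so nothing is read from this share or those of lists below. For the counts by sign below, 48.25% of all genes compared had a difference above 0. On the list of other extracellular nucleotide and adenosine enzymes, which also holds relatives inside the cell and *Dpp4*, 8 genes were compared. Of these, 3 differences were above 0 and 5 below, with 0 at an unadjusted p under 0.05 and a median of -0.14. *Dpp4*, whose product CD26 tethers ADA to the cell surface in humans, averaged 45.6 ± 2.33 TPM in ST2WT and 49.3 ± 0.739 TPM in ST2fl/fl cells (log2 difference -0.11, SE 0.08, adjusted p = 0.538 from limma), with every ST2WT library below every ST2fl/fl library. *Art2b*, the ADP-ribosyltransferase that can gate P2X7, averaged 34.4 ± 4.56 and 39.2 ± 4.94 TPM (-0.18, SE 0.12, adjusted p = 0.503). *Entpd5*, an endoplasmic reticulum relative of *Entpd1*, averaged 14.9 ± 0.997 and 14.5 ± 1.17 TPM (0.03, SE 0.10, adjusted p = 0.903).

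Enzymes that salvage purines inside the cell were more often above 0. Of 20 compared, 15 differences were above 0 and 5 below, with a median of 0.17 that was 0.06 without the ST2WT library of recipient 2. *Aprt*, which salvages adenine, stood at 267, 286, 230 and 243 TPM in ST2WT cells of recipients 1, 2, 3 and 4 and at 214, 193, 194 and 184 TPM in ST2fl/fl cells. All ST2WT libraries were above all ST2fl/fl libraries (log2 difference 0.38, SE 0.09, adjusted p = 0.0969). *Hprt*, which salvages hypoxanthine and guanine, averaged 731 ± 128 and 604 ± 77.1 TPM (0.27, SE 0.13, adjusted p = 0.373), and *Nt5c*, a cytosolic nucleotidase, 242 ± 43.9 and 212 ± 12.4 TPM (0.17, SE 0.12, adjusted p = 0.509). Without the ST2WT library of recipient 2 these differences were 0.17 for *Hprt* and 0.07 for *Nt5c*. At an unadjusted p under 0.05 stood *Aprt*, *Ahcy* and, in the other direction, *Samhd1*, 15% of the list against 13.9% of all genes. With the recipient as a block, 6 genes of the list were higher and 1 lower at that limit. These were 35% of the list, against 20.2% of all genes. *Samhd1*, which encodes a deoxynucleotide triphosphohydrolase, averaged 61.2 ± 6.94 and 81.1 ± 5.68 TPM (-0.40, SE 0.10, adjusted p = 0.121). *Ahcy* and *Samhd1* were named after their values were seen.

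Purine synthesis de novo leaned to one side more than the other lists. Of 12 genes compared, 11 differences were above 0 and 1 below, 6 had an unadjusted p under 0.05, and the median was 0.29. Without the ST2WT library of recipient 2 these were 10 and 2, with 3 at an unadjusted p under 0.05 and a median of 0.20. *Paics*, which carries out consecutive steps of the pathway, stood at 171, 217, 186 and 176 TPM in ST2WT cells and at 147, 163, 165 and 143 TPM in ST2fl/fl cells of recipients 1, 2, 3 and 4. The groups did not overlap (0.28, SE 0.09, adjusted p = 0.250). *Impdh2*, the entry to guanine nucleotides, averaged 68.0 ± 15.8 and 49.4 ± 2.73 TPM, also without overlap (0.43, SE 0.14, adjusted p = 0.221, and 0.28 without the ST2WT library of recipient 2). *Prps1*, which makes the ribose phosphate donor, averaged 85.8 ± 31.3 and 71.6 ± 11.4 TPM (0.21, SE 0.21, adjusted p = 0.644), and its sign turned to -0.02 without the ST2WT library of recipient 2.

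Transporters and channels that pass nucleosides or ATP split, with 2 of 6 differences above 0 and 4 below and a median of -0.15. *Slc28a2*, a concentrative nucleoside transporter, stood at 16.5, 14.8, 13.3 and 13.9 TPM in ST2WT cells and at 18.7, 17.8, 16.9 and 18.2 TPM in ST2fl/fl cells. The ST2WT libraries were all below (-0.28, SE 0.10, adjusted p = 0.274). *Panx1*, a channel that releases ATP, averaged 34.2 ± 4.25 and 30.7 ± 1.86 TPM (0.14, SE 0.11, adjusted p = 0.545). *Slc29a1*, the equilibrative transporter ENT1, averaged 17.4 ± 7.90 and 14.2 ± 0.972 TPM (0.19, SE 0.22, adjusted p = 0.706), and its sign turned to -0.08 without the ST2WT library of recipient 2.

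Of 16 other adenosine, P2X and P2Y receptor genes, *P2ry10* and *P2ry14* were in the table. *P2ry14*, a receptor for UDP sugars whose gene is a neighbour of *P2ry12*, averaged 6.93 ± 0.903 TPM in ST2WT and 5.23 ± 0.473 TPM in ST2fl/fl cells (0.34, SE 0.12, adjusted p = 0.265). *P2ry10*, named for its sequence but activated by lysophosphatidylserine, averaged 37.0 ± 8.66 and 48.7 ± 3.61 TPM (-0.41, SE 0.16, adjusted p = 0.305, and -0.24 without the ST2WT library of recipient 2). *P2ry14* was therefore above 0 and *P2ry10* below, and neither passed.

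Cyclic AMP signaling lies downstream of the receptor encoded by *Adora2a*, which raises it, and of P2Y12, which lowers it. Of 18 genes compared, 5 differences were above 0 and 13 below, with a median of -0.14 that was -0.03 without the ST2WT library of recipient 2. The most abundant were *Prkar1a*, a regulatory subunit of protein kinase A (263 ± 52.2 and 246 ± 10.5 TPM, 0.08, SE 0.12, adjusted p = 0.777, and -0.05 without that library), and the inhibitory G protein genes *Gnai2* (149 ± 13.7 and 139 ± 11.3 TPM, 0.10, SE 0.09, adjusted p = 0.624) and *Gnai3* (97.1 ± 7.76 and 100.02 ± 5.39 TPM, -0.04, SE 0.09, adjusted p = 0.832). At an unadjusted p under 0.05 were *Prkacb*, *Pde4b*, *Crem* and *Pde8a*, named after their values were seen. *Pde8a*, another cyclic AMP phosphodiesterase gene, was alone among them in being higher in ST2WT cells, in 4 of 4 recipients (1.58 ± 0.718 and 0.758 ± 0.424 TPM, 0.54, SE 0.22, adjusted p = 0.323), with groups that overlapped. *Crem*, a transcription factor gene that cyclic AMP induces, averaged 5.93 ± 0.842 TPM in ST2WT and 8.59 ± 0.843 TPM in ST2fl/fl cells (-0.47, SE 0.13, adjusted p = 0.146). *Pde4b*, a cyclic AMP phosphodiesterase gene, averaged 8.78 ± 0.955 and 12.4 ± 1.18 TPM (-0.46, SE 0.12, adjusted p = 0.135). *Crem* and *Pde4b* were lower in the ST2WT libraries without overlap, as was *Prkacb* (-0.32, SE 0.12, adjusted p = 0.297), and none of the 4 passed.

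**Figure D3:**
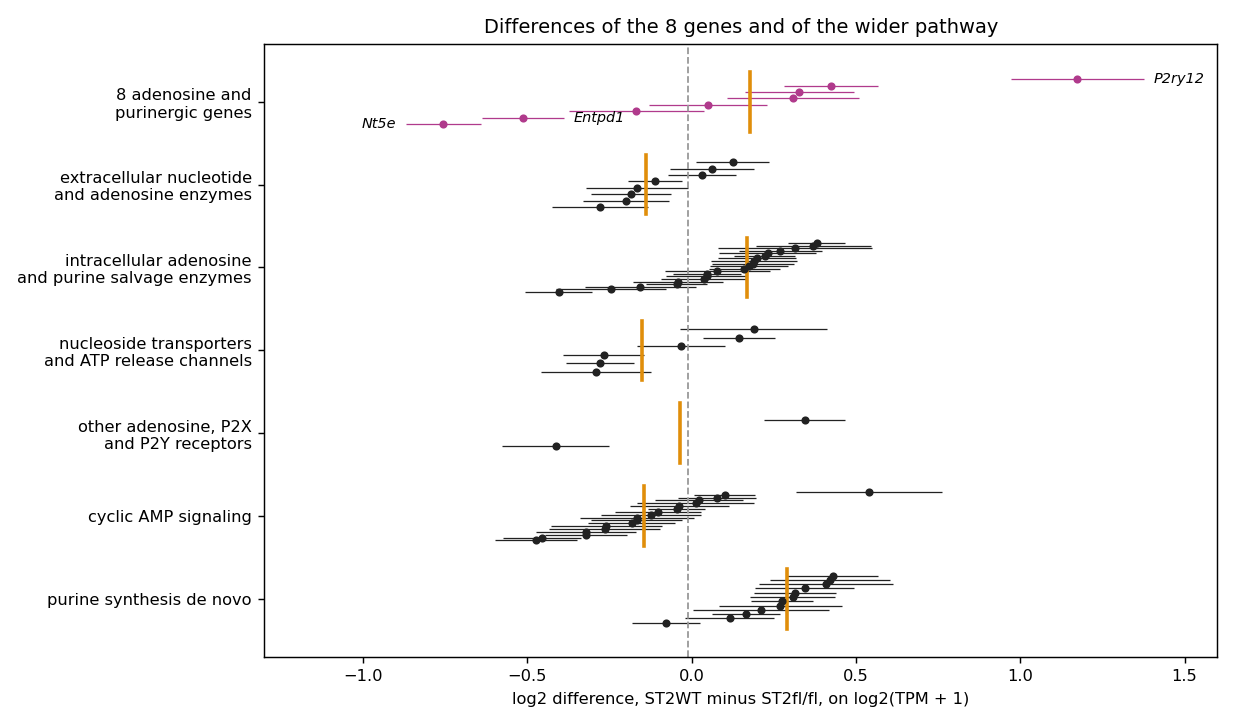
Log2 difference between ST2WT and ST2fl/fl libraries (horizontal axis, with SE as bars) of the 8 genes (purple) and of the 66 other pathway genes compared (black), by list. Orange lines give list medians, from -0.15 for transporters to 0.29 for purine synthesis, and the dashed line the median of all 10238 genes at -0.01, with *P2ry12* and *Nt5e* the farthest from it.

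Summed markers of T cell states moved with genotype in these libraries. The summed level of 9 of 10 regulatory T cell genes in the table was 504 to 608 TPM in ST2WT and 686 to 729 TPM in ST2fl/fl libraries. *Tnfrsf18*, which encodes GITR, made up most of that sum (397 ± 38.9 and 487 ± 19.7 TPM). *Tnfrsf18*, *Ctla4* and *Foxp3* were lower in ST2WT libraries without overlap, and the other 6 genes overlapped between genotypes. *Foxp3*, the transcription factor of regulatory T cells, averaged 6.18 ± 1.58 and 10.2 ± 1.05 TPM (-0.67, SE 0.17, adjusted p = 0.121), without overlap. The sum of 8 naive and central memory genes was 399 to 557 TPM in ST2WT and 573 to 677 TPM in ST2fl/fl libraries, also without overlap. The sum of 6 general CD4+ T cell genes was also lower in all ST2WT libraries, at 4955 to 5222 against 5876 to 6066 TPM. The sums of these 3 lists moved in the direction of *Nt5e* and *Entpd1*, but not every gene in them did. Among the general CD4+ T cell genes *Cd3d*, *Cd3e*, *Cd3g* and *Cd4* were below 0, and *Cd5* (0.05, SE 0.11) and *Lat* (0.10, SE 0.10) above. *Lef1*, at 0.01 (SE 0.10), was the only naive list gene compared that was not below 0. *Ikzf4*, a regulatory list gene too low to be compared, averaged 0.683 TPM in ST2WT and 0.629 TPM in ST2fl/fl cells. The part of these lists in the levels of *Nt5e* and *Entpd1* was not tested. The sum of 3 listed of 6 B cell genes, *Cd22*, *Cd79b* and *Pax5*, was 11.9 to 17.8 TPM in ST2WT and 8.37 to 10.9 TPM in ST2fl/fl libraries, the direction of *P2ry12*. *Ms4a1* and *Cd79a* were among those not listed, and the part of B cells was not tested.

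**Figure D4:**
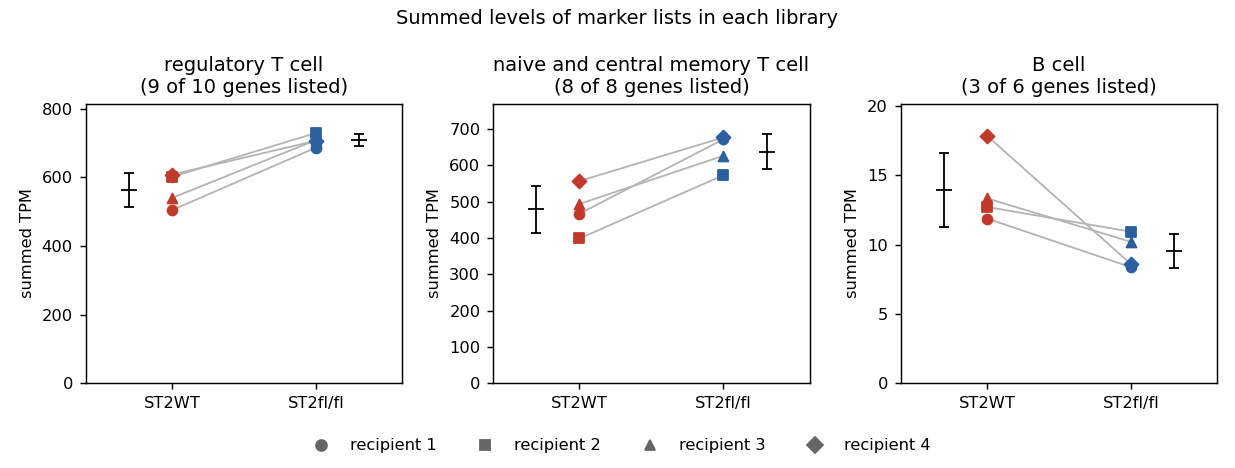
Summed TPM (vertical axes, from 0) of the listed regulatory T cell, naive and central memory T cell and B cell genes in each ST2WT (red) and ST2fl/fl (blue) library, with grey lines joining libraries of 1 recipient and bars giving the mean ± SD of 4. The T cell sums lie lower and the B cell sum higher in all ST2WT libraries than in any ST2fl/fl library.

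Of the 6 general CD4+ T cell genes, only *Cd4* is specific to the sort, at 137 ± 19.3 and 181 ± 12.8 TPM. *Cd3e*, a general T cell gene, stood at 417 ± 56.8 and 494 ± 26.6 TPM. The sum of 5 listed CD8 and gamma delta T cell genes overlapped between genotypes, at 40.0 to 84.5 and 72.2 to 122 TPM. *Cd8a* was not listed, but *Cd8b1* was, at 12.9 ± 0.444 TPM in ST2WT and 12.2 ± 1.89 TPM in ST2fl/fl libraries. The part of CD8 T cells was not tested. *Klrb1c*, the 1 natural killer cell gene listed of 3, stood at 0.812 to 3.21 TPM. The targeted gene *Il1rl1*, which encodes ST2, stood at 18.6, 14.6, 21.3 and 18.2 TPM in ST2WT and at 15.8, 14.9, 16.7 and 17.7 TPM in ST2fl/fl libraries of recipients 1, 2, 3 and 4, so the groups overlapped. A single value for the whole gene does not separate the floxed exons from the rest and does not check the deletion. The ST2WT library of recipient 2 stood apart. The SD of its deviations from the mean of the other libraries of its genotype was 0.46, against 0.24 to 0.28 in the other 7. Its mitochondrial share was 9.18% against 12.7% to 13.8%. The deposited values do not give the reads per library, so the depth and the counting error are unknown.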

How the data were processed

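Donor splenic CD4+ T cells of ST2WT and ST2fl/fl genotype from the same 4 allogeneic recipients were measured by RNA-Seq, in 8 libraries. The authors prepared SmartSeq and Nextera XT libraries, sequenced them on a NextSeq500 and aligned reads to GRCm38.p6 in CLC Genomics Workbench 20.0.3. The deposited values are TPM, scaled by the authors within each library, so that a gene that takes a larger share lowers the others, and low genes rest on few reads of unstated number. The columns sum to 999334 to 999527 over 12417 entries, 0 of them at 0 in any library. Every column was mapped (0 left over). The count-based comparison of the authors cannot be rerun on TPM, and syngeneic recipients were not analysed here.

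A mean of 1 TPM or more was required, which 10238 genes met and 2179 did not. Genotypes were compared on log2(TPM + 1) by limma 3.58.1 (R 4.3.3), with a variance trend, without covariates and with Benjamini-Hochberg adjustment over all genes tested. The threshold was an adjusted p under 0.05 and a fold over 1.5. Positive differences are higher in ST2WT. The script was tested on simulated data. Figures used matplotlib 3.10.9.

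Members and lists were chosen with earlier results of these data known. Named were every member, each pathway gene past the threshold, the 3 of each list with the highest mean TPM, *Foxp3*, *Cd4* and *Cd3e*, and the 3 genes most alike and 3 most opposite to *Nt5e*. Other names were added after their values were seen. *Eomes*, on 2 lines, was left out. Results of some single genes on the marker lists are not reported here.

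Replicate numbers were taken as the recipient, since both genotypes were transferred into the same animal. Deviations from the genotype means correlated between libraries of 1 number ( 0.195, 0.352, 0.118 and 0.163, against -0.283 to 0.109 between numbers). The fit with a replicate block, other pseudocounts, filters, scalings and variance models, and leaving out each library, were alternatives. Coordinates are from GENCODE M21 on GRCm38, where each member matched 1 gene. Sequences are from RefSeq on GRCm38.p6.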

Additional observations from a re-analysis of the deposited data

Results flagged for a closer look

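In 5 of 50 groups of 4 libraries tested, 1 library lay far from the other 3 by Dixon's test, where chance gives about 1 in 20 groups. All 5 were the ST2WT library of recipient 2. *Adora2a* stood at 8.59 TPM there against 3.94 to 4.39 TPM in the other ST2WT libraries, the 1 case among 16 groups of the 8 genes. *Slc29a1* stood at 29.2 TPM against 12.6 to 13.95 TPM. *Prkar1a* stood at 341 TPM against 233 to 242 TPM, and *Prps1* at 132 TPM against 66.0 to 75.3 TPM. *Impdh2* stood at 91.7 TPM against 59.0 to 61.1 TPM.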

How the results depend on the processing

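With the replicate block, 95 genes were past the threshold against 53 without it, 38 higher and 57 lower, and no call of a member changed. The other settings gave 37 to 66 genes, and leaving out 1 library gave 23 (without the ST2fl/fl library of recipient 1) to 104 (without the ST2WT library of recipient 2). Past the threshold were 2 members, 1 with a minimum of 5 TPM, where *P2ry12* was not tested, and 0 to 2 with 1 library left out. *Nt5e* was past it without the ST2WT library of recipient 1 or 2 or the ST2fl/fl library of recipient 3, and *P2ry12* without the ST2WT library of recipient 2 or the ST2fl/fl library of recipient 4. The cause was not tested. Pathway genes past the threshold were 0 throughout. With 1 library left out, signs turned for *P2rx7*, which ranged from -0.10 (without the ST2WT library of recipient 1) to 0.16 and was -0.0086 without the ST2fl/fl library of recipient 4. They also turned for *Entpd5*, from -0.0084 (without the ST2fl/fl library of recipient 4) to 0.077, with -0.00088 without the ST2WT library of recipient 3. Without the ST2WT library of recipient 2 they turned for *Slc29a1* (range -0.078 to 0.31), *Prkar1a* (-0.054 to 0.13) and *Prps1* (-0.016 to 0.32). Precision rests on 4 libraries a group and unknown depth.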
